A study of Mus musculus with 30 samples.

Results

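The kidney filters blood in the glomerulus and then reclaims or secretes solutes along a tubule whose segments carry different transporters. Filtration takes place at the podocytes, most filtered sugar, phosphate, amino acids and protein is taken back in the proximal tubule, salt is reclaimed in the thick ascending limb and distal convoluted tubule, and the collecting duct sets the final water, salt and acid content of urine. The organ also releases renin and activates vitamin D.

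Wild-type mouse kidney was compared with the 4 other tissues of the same series, using the 3 wild-type kidney libraries and the 12 wild-type libraries of brain, liver, muscle (quadriceps femoris) and spleen, 3 for each tissue. These are 15 of the 30 libraries in the series. The other 15 come from mice with a single working copy of Ctcf (Ctcf+/-), the gene of a DNA-binding factor that organises chromatin, and were used only to see whether the results recur. All animals were adults of the C57BL/6 strain, and the wild-type group is labelled as the control genotype and names no treatment. Total RNA from pieces of whole tissue was sequenced, so fewer cells of a type and less RNA per cell cannot be told apart in these values. The labels do not say whether libraries with the same replicate number came from the same mouse, and p-values measure the spread between these libraries.

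The kidney libraries held 91.7 to 98.5 M counted fragments each, and the 15 libraries together spanned 49.8 to 103.7 M. A level is given as CPM (counts per M fragments, M being mega), scaled with TMM factors, as the mean ± SD of 3 libraries, and a fold is a ratio of such means. Levels of different genes are compared only per kilobase of exon. A count of 3 in a library, the upper limit that a count of 0 allows, corresponds on this scale to 0.0236 to 0.026 CPM in kidney, 0.068 to 0.079 CPM in liver and 0.0211 to 0.079 CPM over all 15 libraries, for counting error only. Correlations of log2 levels over all genes tested, given as a description, ran from 0.99 to 0.992 between kidney libraries. They were 0.814 to 0.828 between kidney and liver, 0.785 to 0.824 with muscle, 0.687 to 0.707 with spleen and 0.685 to 0.697 with brain.

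Several libraries stood apart in transcripts typical of another cell type or tissue. Kidney replicate 3 held 209 CPM of the 17 skeletal muscle fibre genes in sum, against 16.1 and 17.2 in replicates 1 and 2, and it held 63.5 CPM of the 8 adipocyte genes, against 520 and 325. Urothelial genes summed to 109, 73.3 and 53.6 CPM in kidney replicates 1, 2 and 3. Muscle replicate 2 held 25 strongly kidney-enriched transcripts, named further on, at a median of 0.501% of their kidney level, and muscle replicates 1 and 3 at 0.0777% and 0.0873%. Liver replicate 3 held 110 CPM of 16 neuronal genes, against 29.6 and 28.5 in the other liver libraries. Spleen replicate 3 held 10711 CPM of the erythroid genes, against 62966 and 41124 in the other spleen libraries, 1101 CPM of the proliferation genes, against 2637 and 3013, and 17.4 CPM of the pancreatic genes, against 193 and 118. The part of these transcripts in the results was not tested beyond leaving libraries out.

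A gene was called kidney-enriched when kidney was at least 4-fold higher than each of the 4 other tissues, with an adjusted p under 0.05 in each comparison, and kidney-depleted when it was lower by the same rule. Of 22933 genes tested, 902 were enriched (3.93%) and 49 were depleted (0.214%). Against the mean of the 4 other tissues, 3413 genes were higher in kidney (14.9%) and 1267 were lower (5.52%). Higher genes made up 72.9% of these, and this split depended on the method, at 83.6% with scaling to total counts, 60.4% with DESeq2 and 53.8% with limma-voom. Of the 902 enriched genes, 900 were higher in all 3 kidney libraries than in all 12 others. The enriched genes took 14.47 to 14.78% of the counts in kidney and 0.16 to 0.4% elsewhere, and 165 of them reached 100 CPM, while 217 stayed under 1 CPM. Without muscle replicate 2 and kidney replicate 3 together, a choice made after seeing the data, 905 genes were enriched, 869 of them shared with the 902.

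**Figure D1:**
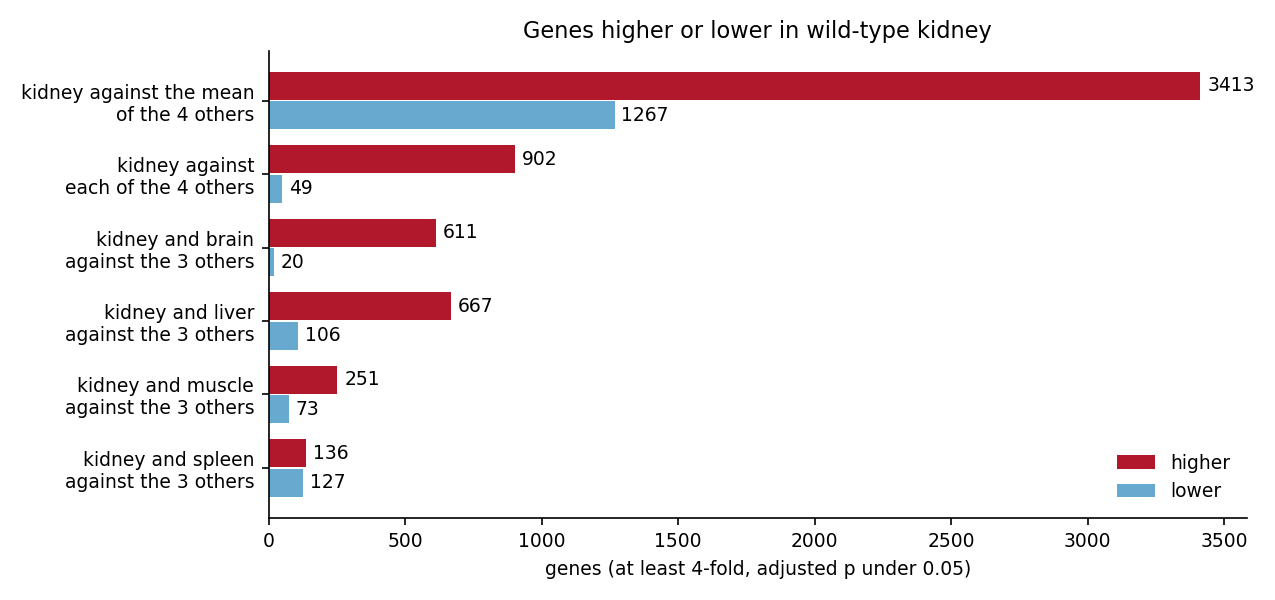
Number of genes at least 4-fold higher (red) or lower (blue) in wild-type kidney than in the mean of the 4 other tissues (top), than in each of them, or together with 1 other tissue than in the remaining 3, among 22933 genes tested; the horizontal axis counts genes. Kidney-enriched genes (902) outnumber kidney-depleted genes (49), and genes shared upward with liver (667) or brain (611) outnumber those shared with muscle (251) or spleen (136). Some genes shared upward are also kidney-enriched (64 with liver, 94 with brain, 77 with muscle and 23 with spleen).

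The most abundant kidney-enriched transcript per kilobase was Kap, the kidney androgen-regulated protein, on chromosome 6 (GRCm38, 133849851 to 133853762). Kap read 12146, 11545 and 10826 CPM in the 3 kidney libraries, and 0 in every brain, liver and spleen library. Muscle replicates 1, 2 and 3 read 9.93, 80.2 and 9.21 CPM. The 3 kidney libraries are thus far above the 12 others, and kidney was 348-fold over muscle (log2 difference 8.44 ± 1.06 SE, adjusted p = 1.29e-04, edgeR, all 15 libraries). Without muscle replicate 2 the fold over muscle was 1202. Over liver it was at least 158220-fold, counted against 3 counts per library. Gpx3, the plasma glutathione peroxidase, was present at 14476 ± 2108 CPM (SD, n = 3) in kidney and 539 CPM in muscle, a 26.9-fold difference. The others among the 10 most abundant per kilobase were Fxyd2, a sodium pump subunit, Klk1, a kallikrein, Spink1, a protease inhibitor, Miox, which starts inositol breakdown, the aspartic protease Napsa, Umod, Igfbp7 and the tetraspanin Cd63. Igfbp7 (1393 CPM against 141 in liver) and Cd63 (1133 CPM against 274 in muscle) were the least exclusive of the 10, and Cd63 had a log2 difference of 2.05 against muscle. Cd63 lost the call without muscle replicate 3 and with DESeq2.

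The 25 named genes with the largest fold over the next tissue were 418- to 595-fold higher in kidney, counted against 3 counts per library where that was higher. Without muscle replicate 2, an alternative chosen after seeing the data, these folds ran from 448 to 2168 with a median of 1115. Among them were Slc7a12, an amino acid transporter of the proximal tubule in mice, Slc22a12, the urate transporter, Slc13a1, the sulphate transporter, Slc5a9, Slc5a10 and Slc5a12, sodium-coupled sugar and monocarboxylate transporters, and Slc6a18 and Slc6a20b, amino acid transporters. Also present were Dao, a D-amino acid oxidase, Guca2b, uroguanylin, and Cdh16, the kidney cadherin. Muscle was the next tissue for 24 of the 25 genes, and liver for Cldn8, a tight junction protein. Ugt1a2 shares exons with other genes of the Ugt1a cluster, Slc22a12 with Nrxn2 and Umod with Gm44588, so these 3 values are uncertain.

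**Figure D2:**
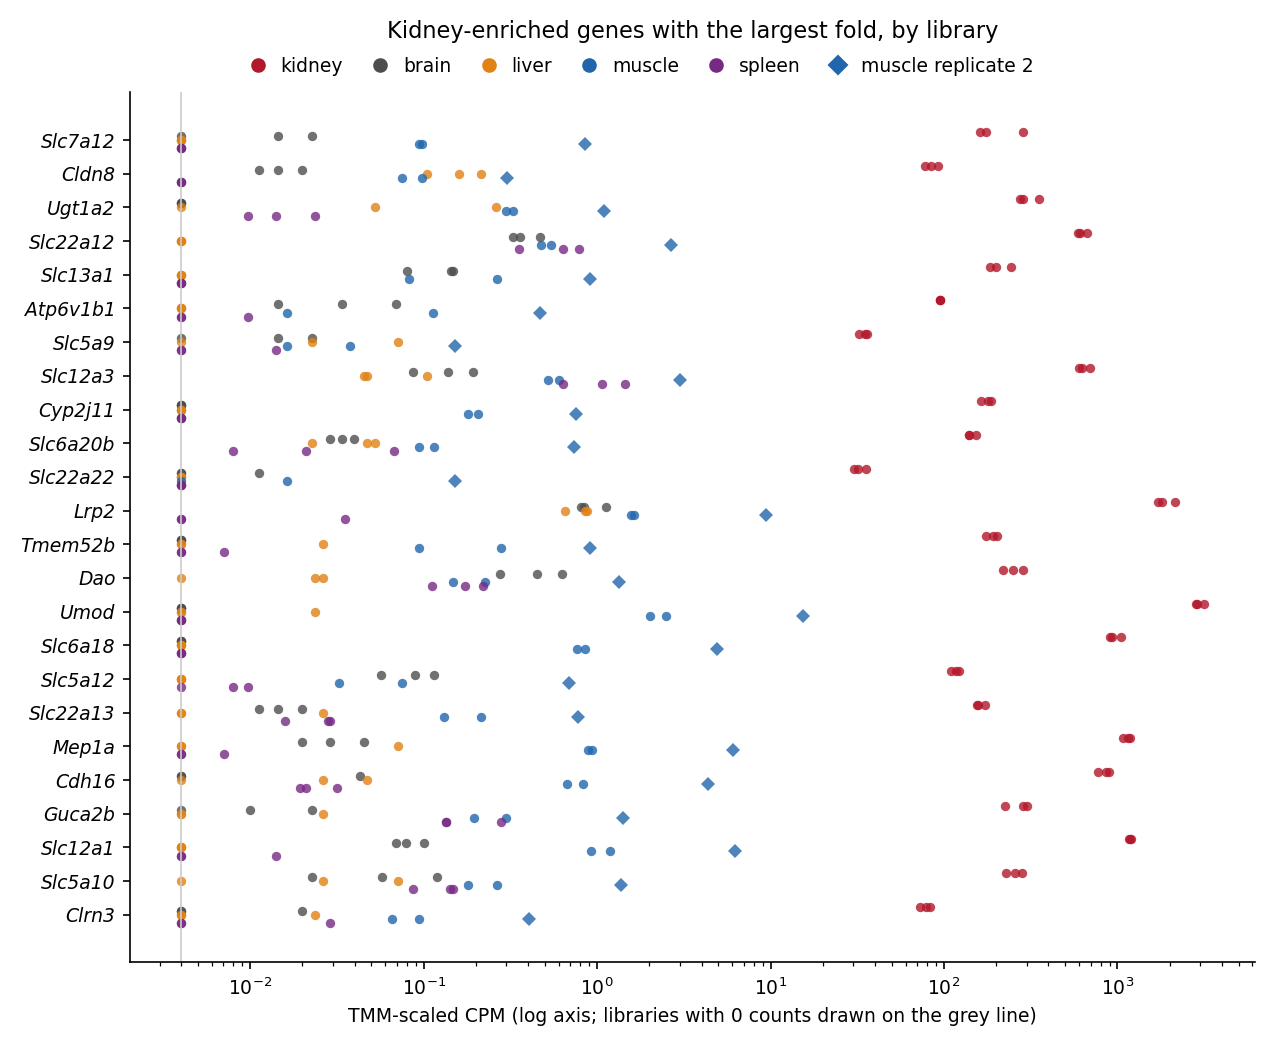
TMM-scaled CPM on a log axis for 24 of the 25 genes in all 15 wild-type libraries; each point is a library, and libraries with 0 counts are drawn on the grey line. The kidney means lie at least 418-fold above the mean of the next tissue or above 3 counts per library, and muscle replicate 2 (diamonds) lies above muscle replicates 1 and 3 for every gene.

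**Figure D3:**
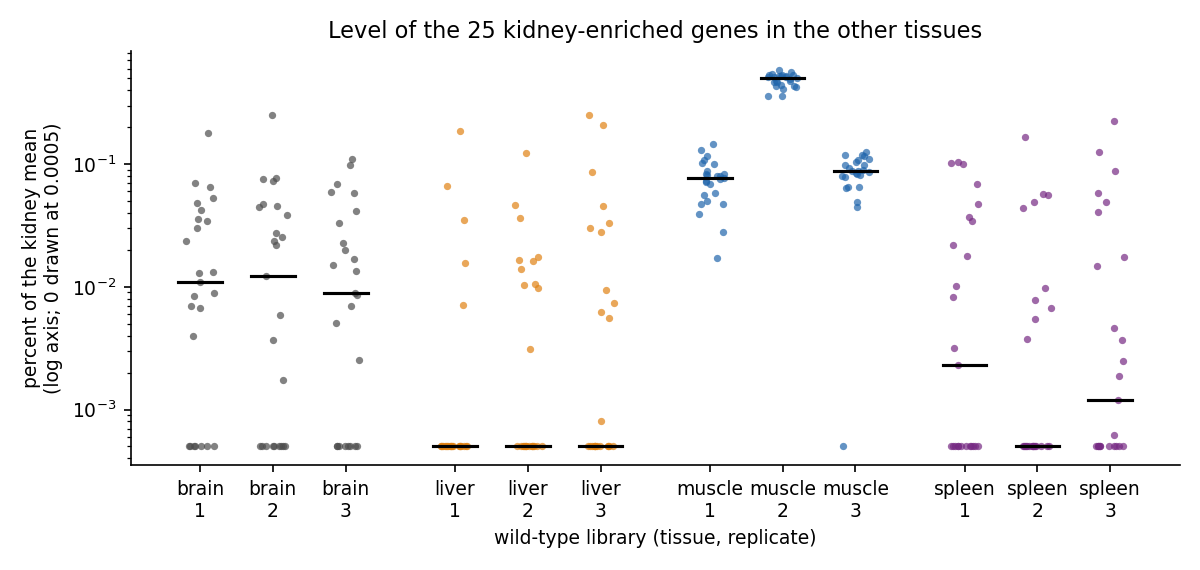
Level of the same 25 genes in each of the 12 other libraries, as a percent of the kidney mean on a log axis; points are genes and black lines medians. The medians are 0.501% in muscle replicate 2, 0.0777% and 0.0873% in muscle replicates 1 and 3, and at most 0.0123% in the brain, liver and spleen libraries.

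In muscle replicate 2, the 25 genes lay between 0.357% and 0.591% of their kidney level. The genes were picked by their fold over the next tissue, mostly muscle, so this range is not independent of the choice. Without muscle replicate 2, muscle remained the next tissue for 19 of the 25 genes. Umod was at 0 in every brain and spleen library and had a single count among the liver libraries, against 2867, 3140 and 2832 CPM in kidney. Slc6a18 was at 0 in all 9 libraries of brain, liver and spleen and was at least 13211-fold higher in kidney.

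Podocyte genes had the lowest median difference of the 13 kidney lists. Of 15 podocyte genes tested, 4 were enriched, among them Npnt, Nphs1 and Wt1, 9 were higher than the mean of the other tissues, and their median log2 difference from that mean was 3.57, against -0.02 over all genes tested. Nphs1, nephrin of the slit diaphragm, read 10.9, 10.5 and 7.45 CPM against 1.32 in brain. Npnt, an extracellular matrix ligand, was the highest of the list per kilobase at 287 ± 40.8 CPM, 17.1-fold over brain. Other podocyte genes were shared. Podxl, the podocyte surface sialomucin, was at 114 ± 7.11 CPM in kidney and 90.2 ± 23.8 CPM in muscle, and this difference did not pass the test (log2 difference 0.34 ± 0.23 SE, edgeR adjusted p = 0.21). Synpo, an actin-associated protein, was lower in kidney (28.1 CPM) than in muscle (271 CPM) and brain (156 CPM).

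The apical membrane of the proximal tubule carries the transporters that reclaim filtered solutes. Of 29 such genes 19 were enriched, 28 were higher than the mean of the other tissues, and the median log2 difference was 9.38. Slc34a1, the main phosphate transporter, read 1888, 2573 and 2635 CPM in kidney, while brain, liver and spleen means were 0.0399, 0.0234 and 0.14 CPM. Muscle was the next tissue for Slc34a1, 406-fold under kidney, or 933-fold without muscle replicate 2. Slc5a2, the glucose transporter SGLT2, read 147, 238 and 234 CPM, and Slc6a19, a neutral amino acid transporter, 156, 163 and 215 CPM. All kidney values of both genes lay above every other library, and the spleen mean of Slc6a19 was 5.24 CPM. The members that were not enriched have a second tissue. Aqp1, the water channel, stood at 846 ± 18.3 CPM in kidney, 504 ± 105 in muscle and 312 ± 183 in spleen. Slc47a1 (187 CPM), Slc23a1 (99 CPM) and Slc17a3 (85.5 CPM) were high in liver, Slc1a1 in brain (59.9 CPM), and Slc15a2 (37 CPM) and Slc22a4 (16 CPM) in spleen. Slc20a2, a phosphate transporter, was lower in kidney than in liver, at 43.8 CPM in kidney and 103 CPM in liver.

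Among 18 basolateral proximal genes 10 were enriched and 16 were higher than the mean, with a median log2 difference of 6.03. The organic anion transporters Slc22a6, Slc22a7 and Slc22a8 were all enriched, Slc22a8 at 494 ± 75.5 CPM against 13.2 CPM in brain. Slc2a2, the glucose transporter GLUT2, was higher in liver (413 CPM) than in kidney (96 CPM), and so was Slc26a1, a sulphate transporter (265 against 59.4 CPM).

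Endocytic receptors and brush-border enzymes take up and cut filtered protein. All 19 were higher than the mean, 16 were enriched and the median log2 difference was 6.70. Lrp2, megalin, which takes up filtered protein, read 2155, 1807 and 1703 CPM in kidney and its partner Cubn, cubilin, 397, 339 and 347 CPM. In every other library Lrp2 stayed at or under 9.46 CPM. Mep1a, a brush-border metalloprotease, was at 1137 ± 58.8 CPM, and the glutathione-processing enzyme Ggt1 at 736 ± 34.4 CPM, 153-fold over spleen. Anpep, Enpep and Dpp4, 3 peptidases, were not enriched, and liver held 226, 144 and 173 CPM of them against 121, 77.4 and 82.7 CPM in kidney.

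Metabolic genes of the proximal tubule were largely shared with liver. Of 34 genes 33 were higher than the mean, 9 were enriched and 23 belonged to the genes that kidney and liver shared. The median log2 difference was 9.96 against brain, 8.44 against muscle, 10.97 against spleen and -0.70 against liver. The sign of that last value is not stable, since scaling to total counts moved it to 0.31 and moved the median of all genes against liver from 0.08 to 1.07. Leaving out the liver libraries made 31 of the 34 enriched. Miox, among the 9 enriched genes, stood at 1818 ± 397 CPM in kidney and 0.336 CPM in liver, and was 397-fold over muscle, or 956-fold without muscle replicate 2. Pck1, the gluconeogenic enzyme, read 2797 ± 461 CPM in kidney and 1973 ± 1645 CPM in liver, which did not pass the test (edgeR adjusted p = 0.527). Hpd, an enzyme of tyrosine breakdown, was lower in kidney (167 CPM) than in liver (3868 CPM), and Cyp2e1 likewise (69.8 against 9336 CPM).

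**Figure D4:**
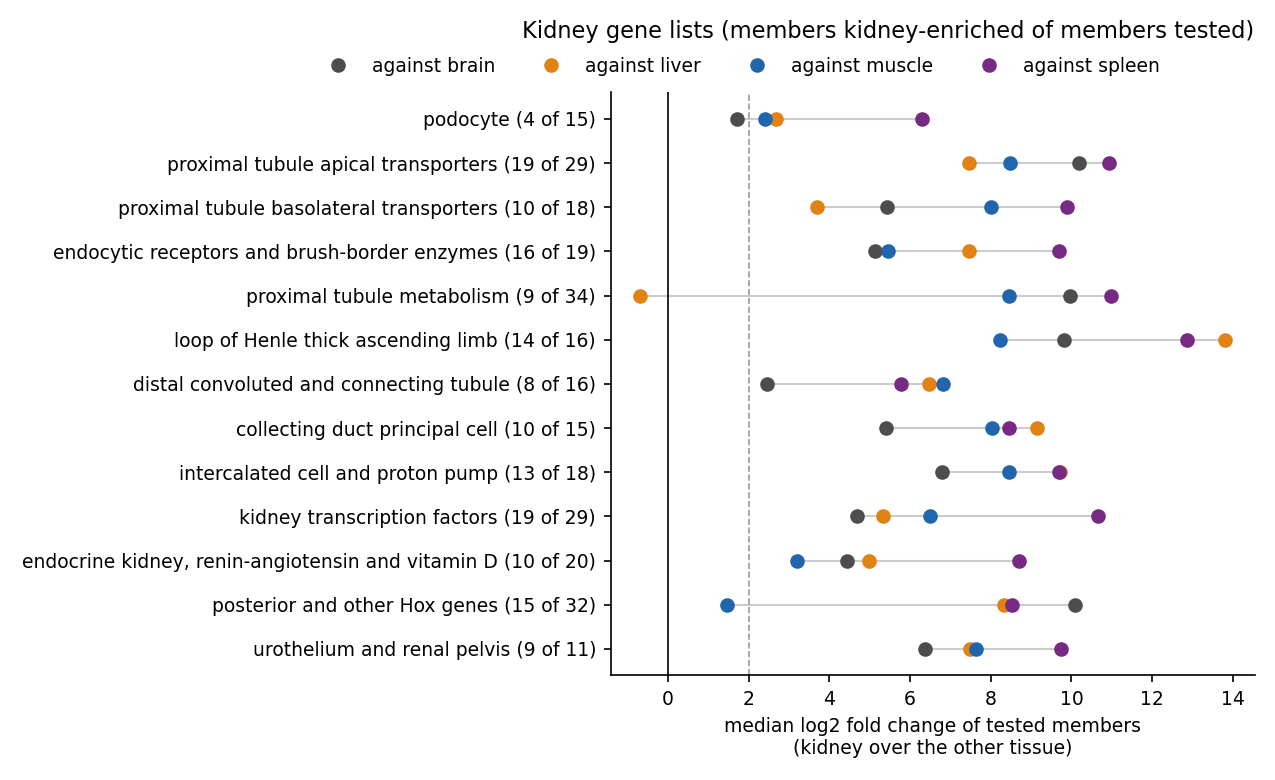
Median log2 fold change of kidney over each of 4 other tissues for the tested members of 13 kidney gene lists, with the number of kidney-enriched members among those tested; the dashed line marks 4-fold. Metabolism against liver is the only median below 0 (-0.70, and 0.31 with total counts), and the Hox list against muscle (1.45) and the podocyte list against brain (1.70) are the only other medians under 4-fold.

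Of the 13 kidney lists, the thick ascending limb genes had the largest median, 10.42, with 14 of 16 enriched. Umod, uromodulin, was present at 2946 ± 169 CPM, the chloride transporter Slc12a1 read 1191, 1169 and 1175 CPM, and the epidermal growth factor precursor Egf read 1538, 1554 and 1528 CPM. The 3 libraries agree closely for Slc12a1 and Egf, but muscle held 67.1 CPM of Egf, 23-fold under kidney. Kcnj1, the potassium channel ROMK, was at 214 ± 7.93 CPM. The exceptions were Ppp1r1a, a phosphatase inhibitor, at 222 CPM in kidney and 208 CPM in muscle, and Casr, the calcium-sensing receptor, at 25.3 CPM in kidney and 9.9 CPM in muscle.

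Of 16 genes of the distal convoluted and connecting tubule 8 were enriched and 13 were higher than the mean, with a median log2 difference of 4.96. Slc12a3, the thiazide-sensitive salt transporter, read 626, 599 and 694 CPM, against 1.38 ± 1.41 CPM in muscle. Klk1 stood at 1511 ± 73.4 CPM, Kcnj16, a potassium channel, at 423 ± 28.2 CPM, and the calcium channel Trpv5 at 9.89 ± 1.5 CPM. Calb1, calbindin, is also a brain gene, at 299 ± 8.2 CPM in kidney and 123 ± 4.59 CPM in brain. Pvalb, parvalbumin, was carried mainly by muscle, at 30811 ± 846 CPM against 34.1 CPM in kidney.

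In the collecting duct, 10 of 15 principal cell genes were enriched and the median log2 difference was 8.70. Aqp2, the vasopressin-regulated water channel, read 329, 354 and 276 CPM in kidney, while brain, liver and spleen had mean levels at or under 0.0804 CPM. Muscle was the next tissue for Aqp2, 265-fold under kidney, or 834-fold without muscle replicate 2. Scnn1b and Scnn1g, subunits of the epithelial sodium channel, stood at 32 ± 0.507 and 28.1 ± 3.08 CPM and were enriched, whereas Scnn1a was not, with 50 CPM in liver against 87.7 in kidney. Aqp4 stood at 81.5 ± 10.8 CPM in kidney and 111 ± 3.87 CPM in brain, which did not pass the test (edgeR adjusted p = 0.192). Avpr2, the vasopressin receptor, was listed at 0.113 CPM in kidney and 6.84 CPM in spleen, but its exons overlap Arhgap4, so fragments of the 2 genes may not be told apart.

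Of 18 intercalated cell genes 13 were enriched and the median log2 difference was 8.57. Atp6v1b1, a proton pump subunit, read 95.1, 95.3 and 95 CPM, and Atp6v0a4 stood at 217 ± 9.48 CPM, 294-fold over muscle. The anion exchangers Slc26a4 (57.9 ± 5.64 CPM) and Slc4a9 (51.2 ± 12.5 CPM), the ammonia channel Rhcg (88 ± 4.07 CPM) and the factor Foxi1 (24.4 ± 3.92 CPM) were enriched too. Slc4a1, the anion exchanger of red cells, was the most different from its list, at 37.6 ± 4.09 CPM in kidney and 1611 ± 1023 CPM in spleen, and Car2, carbonic anhydrase, stood at 286 ± 24.6 CPM in kidney and 813 ± 488 CPM in spleen. In spleen replicates 1, 2 and 3, Slc4a1 read 1952, 2421 and 461 CPM and Car2 read 1039, 1147 and 253 CPM, so replicate 3 was the lowest for both.

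Of 29 kidney transcription factor genes 19 were enriched and 27 were higher than the mean, with a median log2 difference of 6.90. Pax8, needed for the formation of the nephron, read 42.2, 40 and 43.2 CPM in kidney and at most 0.269 CPM in any other library. Pax2 read 31.9, 30.2 and 32.5 CPM. Tfcp2l1 stood at 244 ± 23.1 CPM, against 11.8 CPM in liver. Hnf4a (542 ± 16.8 CPM) was not enriched, with 842 ± 268 CPM in liver and an adjusted p of 0.272 (edgeR) for the difference. Maf was highest in muscle (377 CPM against 131 in kidney).

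Of 20 tested genes of the renin-angiotensin and vitamin D systems 10 were enriched, with a median log2 difference of 5.41. Ren1, renin, read 62.6, 59.1 and 42.7 CPM, and muscle had 0.208 ± 0.3 CPM. Cyp27b1 and Cyp24a1, which make and degrade active vitamin D, stood at 3.68 ± 1.29 and 16.3 ± 9.95 CPM, and Cyp24a1 varied from 7.88 to 27.3 CPM among the kidney libraries. The receptor Vdr was at 166 ± 16.8 CPM, Kl, klotho, at 350 ± 25.8 CPM and Pth1r, the parathyroid hormone receptor, at 511 ± 55.8 CPM. Agt, angiotensinogen, was mainly a liver transcript, at 1373 CPM there against 75.6 CPM in kidney, and so was the receptor Agtr1a (134 against 33.7 CPM). Epo and Agtr1b did not pass the filter on low counts and have no test, at 0.273 and 0.025 CPM in kidney.

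HNF4 factors bind the promoters of many kidney and liver genes. The 300-base promoters of RefSeq (GRCm38.p6, 250 bases before to 50 after the start site) were searched on both strands for CAAAGTCCA, part of an HNF4 site, and 7 of the 694 promoters of kidney-enriched genes held it (1.01%). All 32851 promoters held it in 0.475%, and promoters of genes shared by kidney and liver but not enriched in 2.77% (14 of 506). TCAAGGTCA, a site of ESRR factors, was in 0.144% (1 of 694), 0.423% and 0.198% (1 of 506) of these 3 sets. Single promoters are not read as a difference. The 18757 promoters of tested genes held CAAAGTCCA in 0.506% and TCAAGGTCA in 0.309%. Promoters were matched for 581 of the 902 enriched genes. The promoters of 2 kidney-enriched proximal tubule genes that hold the HNF4 match follow, with the 9 matching bases in capitals, and a match is a description, not a binding site. Slc3a1, a subunit of the cystine transporter (420 ± 4.13 CPM in kidney), has its promoter on chr17:85028097-85028396. Nat8, an acetyltransferase (48.4 ± 19.9 CPM), has it on the minus strand of chr6:85832230-85832529, with the match on the strand opposite to the gene.
Slc3a1: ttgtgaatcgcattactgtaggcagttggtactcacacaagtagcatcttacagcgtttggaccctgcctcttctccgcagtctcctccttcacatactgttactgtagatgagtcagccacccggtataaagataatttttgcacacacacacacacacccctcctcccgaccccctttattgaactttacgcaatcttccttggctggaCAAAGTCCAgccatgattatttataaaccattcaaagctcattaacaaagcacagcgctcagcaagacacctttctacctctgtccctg
Nat8: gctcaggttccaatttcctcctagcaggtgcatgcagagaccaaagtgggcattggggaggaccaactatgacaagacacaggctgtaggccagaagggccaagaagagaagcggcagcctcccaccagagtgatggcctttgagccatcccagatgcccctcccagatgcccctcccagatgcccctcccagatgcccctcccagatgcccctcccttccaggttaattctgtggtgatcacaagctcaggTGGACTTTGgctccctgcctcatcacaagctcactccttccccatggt

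Hox genes, which lay down position along the body axis, separated kidney from brain, liver and spleen, but less from muscle. All 10 tested genes with a Hoxb symbol and all 7 with a Hoxd symbol were enriched, antisense genes such as Hoxb5os and Hoxd3os1 included. Counting without strand cannot tell those from their partners. HoxB lies in a run of 14 enriched genes among 14 tested on chr11:96251105-96354691, and HoxD in a run of 12 among 12 on chr2:74679557-74762896. Hoxb8 stood at 49.5 ± 3.94 CPM in kidney and 1.14 CPM in muscle, and Hoxb6 at 45.1 ± 1.84 against 1.82 CPM. Hoxd8 stood at 125 ± 10.4 CPM against 29.9 ± 15.2 in muscle. Its log2 difference of 2.06 was close to the 4-fold minimum, and it lost the call without kidney replicate 1, muscle replicate 1 or muscle replicate 2, with DESeq2 and in the heterozygous libraries. Of the 32 Hox genes tested 15 were enriched and 31 were higher than the mean, and the median log2 difference was 1.45 against muscle and 8.34 to 10.08 against the other tissues. Without the muscle libraries 29 were enriched. By mean level kidney was the highest tissue for 23 of the 32 and muscle for 9. Some HoxC genes were lower in kidney than in muscle, with Hoxc10 at 13.9 ± 0.606 CPM in kidney and 163 ± 19.4 in muscle, Hoxc9 at 7.16 against 32.7 CPM and Hoxc11 at 0.714 against 13.8 CPM. Hoxa10 was higher in kidney by less than 4-fold (49.3 ± 2.88 against 30.6 ± 5.2 CPM, edgeR adjusted p = 0.0164).

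**Figure D5:**
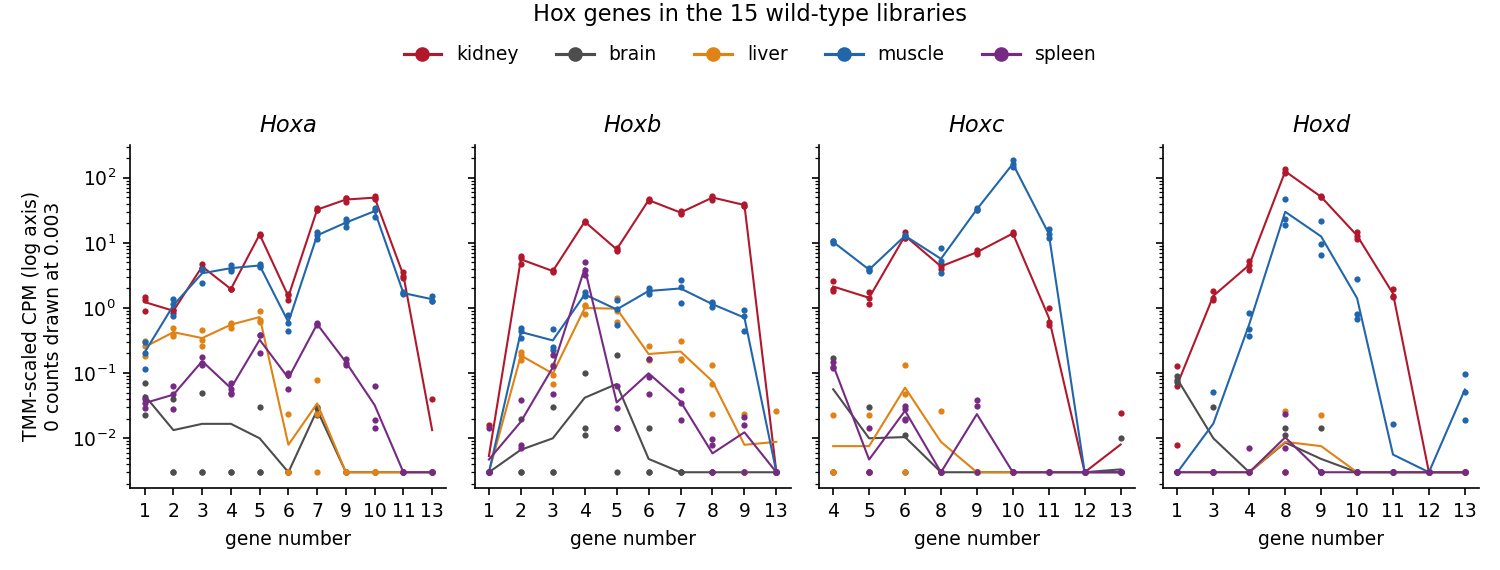
TMM-scaled CPM on a log axis for Hox genes of the 4 clusters, by gene number, with points for libraries and lines for tissue means; 0 counts are drawn at 0.003. Kidney lies above muscle for most HoxB and HoxD genes and above brain, liver and spleen for nearly all of those detected. It lies below muscle for 9 of the 32 tested genes, Hoxc9, Hoxc10 and Hoxc11 among them.

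Epithelial genes of the renal pelvis were also enriched, at low levels. Of 11 urothelial genes 9 were enriched and the median log2 difference was 8.19. Upk3a, a uroplakin, read 10.9, 7.36 and 4.85 CPM in kidney replicates 1, 2 and 3, Upk2 read 5.32, 3.29 and 1.78, and Psca read 21.4, 16.9 and 14. All 3 were higher in replicate 1 than in replicate 3, as was the sum of the list. Trp63, a factor of basal epithelia, was higher in muscle (9.93 CPM) than in kidney (1.58 CPM), and Upk3b stood at 7.07 CPM in liver and 6.91 CPM in kidney (edgeR adjusted p = 0.981).

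Gene families are given beside the shares over all genes tested, which were 3.93% enriched, 0.214% depleted, 14.9% higher than the mean and 5.52% lower. Kidney and liver shared 2.91% of all genes as higher. Genes with a solute carrier symbol made up 64 of the 902 enriched genes, from 337 tested, the antisense genes Slc13a2os and Slc6a19os included. Of the 337 solute carrier genes, 131 were higher than the mean and 33 lower. The median log2 difference for the 337 was 0.87. Among its families were Slc5 (9 of 13 enriched, median 7.84), Slc22 (12 of 23, median 7.44), Slc13 (3 of 5, median 7.08, without Slc13a2os) and Slc34 (2 of 3, median 10.9). Claudins, the tight junction proteins, had 7 of 20 enriched, among them Cldn10 (205 ± 10.5 CPM) and Cldn8, and aquaporins 4 of 10. Kallikreins had 10 of 16. Around Klk1 on chr7:44102328-44236122, 9 of the 10 tested genes were enriched, Gm10109 and 1700028J19Rik among them. The kallikrein genes of that cluster are close copies of each other, so their split is uncertain. Iroquois factors had 5 of 6, not counting the antisense gene Irx3os, and beta-defensins 6 of 7. Cytochromes P450, of which 10 of 91 were enriched, and UDP-glucuronosyltransferases, 4 of 19, had 15 and 11 members among the genes that kidney and liver shared. No mitochondrially encoded gene (of 32), nuclear respiratory chain gene (of 95) or cytoplasmic ribosomal protein gene (of 86) was enriched or depleted. Beside the shares of 3.93% and 0.214% over all genes tested, this is not read as a difference.

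Markers of other cell types are given against the mean of the other tissues, where 14.9% of all genes were higher and 5.52% lower. Of 20 hepatocyte genes 11 were lower and 2 higher (median log2 difference -2.09), of 16 neuronal genes 7 were lower (-2.45), and of 14 oligodendrocyte and astrocyte genes 6 were lower and 1 higher (-2.74). Hepatocyte genes had medians of -11.89 against liver and 0.42 to 2.31 against the other tissues. Neuronal genes had -10.54 against brain, -2.40 against liver, 1.59 against muscle and 2.98 against spleen. The liver value was -1.28 with limma-voom. Liver replicate 3 held 110 CPM of the neuronal genes, against 29.6 and 28.5 in the other liver libraries, and its part in that value was not tested. Oligodendrocyte and astrocyte genes had -8.77 against brain and -1.35 to -0.02 against the others, where the muscle value of -0.11 was 0.80 with total counts. For 10 of the hepatocyte genes the sign against the mean turned in the heterozygous libraries. Alb, albumin, read 23.2 to 26.8 CPM of total counts in wild-type spleen and 0.0219 to 0.112 in heterozygous spleen, and the part of this in the list's values was not tested. Of 10 B cell genes 4 were lower (-1.50), with medians of -9.10 against spleen, -1.36 against liver, 2.40 against brain and 1.66 against muscle. All 7 tested adipocyte genes were higher (6.00), but their median was 0.80 against muscle, and 6 belonged to the genes that kidney and muscle shared. The sum of the adipocyte genes differed between the kidney libraries as given above. Endothelial genes had 4 of 11 higher (1.71) and smooth muscle, pericyte and fibroblast genes 5 of 12 (1.68). Against muscle these medians were -0.76 and -2.07, or 0.40 and -0.91 with total counts. Muscle was the highest tissue for 7 of the endothelial genes and 10 of the others.

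In the remaining marker lists the counts were small and are not read as a difference from all genes. The mean of the other tissues hides a low median against a single tissue in each list. It was -12.45 against muscle for muscle fibre genes and -3.58 against brain for adrenal genes. Against spleen it was -5.39 for erythroid, -6.61 for T and NK cell, -3.96 for myeloid, -5.04 for proliferation and -8.16 for pancreatic genes. Their medians against the remaining tissues ran from -1.03 to 5.26. The 5.26 belongs to muscle fibre genes against liver and was 1.90 with limma-voom. Kidney replicate 3 held 209 CPM of the muscle fibre genes, against 16.1 and 17.2 in replicates 1 and 2, and its part in that median was not tested. Skeletal muscle fibre genes had 3 of 17 lower and 1 higher, and their median of -0.44 was -2.89 with limma-voom and 0.02 with total counts. Erythroid genes had 1 of 10 higher, with a median of -0.13 that was 0.35 with total counts. T and NK cell genes had 1 of 11 lower (-0.55), myeloid genes 1 of 13 (-0.84) and proliferation genes 1 of 22 (-0.83), and of 9 adrenal genes 1 was higher and 2 were lower (-1.10). Of 9 pancreatic exocrine genes 1 was higher (-0.53), the elastase Cela1. Cela1 was also called enriched, with a smallest log2 difference of 2.01, and lost that call without kidney replicate 3, without spleen replicate 3, with DESeq2, with total counts and in the heterozygous libraries.

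Genes that kidney shared with a single tissue were called when both tissues were at least 4-fold higher, or lower, than each of the 3 remaining ones. Kidney and liver shared 667 higher genes (2.91%) and 106 lower genes (0.462%), kidney and brain 611 (2.66%) and 20 (0.0872%), kidney and muscle 251 (1.09%) and 73 (0.318%), and kidney and spleen 136 (0.593%) and 127 (0.554%). Of the higher genes 64, 94, 77 and 23, in this order, were also kidney-enriched, so above the partner tissue too. Kidney and partner levels were within 4-fold of each other for 393, 347, 122 and 93 genes, in the same order. The other genes of each class differed more within the pair. Kap is in the kidney and muscle class at 348-fold over muscle, or 1202-fold without muscle replicate 2. Without muscle replicate 2 and kidney replicate 3 together that class held 227 higher genes, 221 of them shared with the 251. Within the higher kidney and liver class the liver was the higher of the pair for 455 of 667 genes with TMM scaling and for 320 with total counts, a comparison added after seeing the data, so this order depends on the scaling. G6pc, glucose-6-phosphatase, read 205, 698 and 248 CPM in kidney and 163, 731 and 459 in liver, with replicate 2 the highest in both tissues. Cyp4a10, a fatty acid hydroxylase, stood at 369 ± 20.7 CPM in kidney and 1299 in liver, and Aldh8a1 at 278 ± 14.8 against 546 CPM. With brain, kidney shared Pou3f3, a POU factor (168 ± 3.2 CPM in kidney, 67.7 in brain), Slc6a15, an amino acid transporter (24.4 against 37.2 CPM), and Kcnk1, a potassium channel (129 against 59.8 CPM). With muscle it shared Itgb6, an integrin subunit (90 ± 1.08 against 39.8 CPM), and Cfd, adipsin, which read 187, 76.2 and 5.56 CPM in the 3 kidney libraries. Adipocyte genes moved with Cfd, since Adipoq read 42.6, 24.3 and 1.35 CPM in the same libraries, and the part of fat in this call was not tested. With spleen it shared Mcoln3, a lysosomal channel (8.94 against 6.46 CPM), and Havcr1, the tubule injury marker KIM-1, at 1.76 ± 0.896 CPM in kidney and 1.96 CPM in spleen.

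Of the 49 kidney-depleted genes 35 had all 3 kidney libraries below all 12 others, and 14 had at most 3 counts in each kidney library. Only 3 depleted genes had at least 10 CPM in each other tissue. St3gal5, the sialyltransferase that makes the ganglioside GM3, read 4.41, 4.93 and 5.97 CPM in kidney, and the lowest other tissue, brain, read 77.9, 76.2 and 88.1 CPM. That is 15.8-fold, and every kidney library was below every other library (edgeR, largest adjusted p = 5.08e-05 over the 4 comparisons). Aldh1a1, a retinaldehyde dehydrogenase, read 11.5, 11.1 and 12.9 CPM in kidney, 5.44-fold below brain (64.5 CPM), while liver held 1200 CPM. Cry1, a clock repressor, read 2.5, 3.7 and 2.14 CPM, and the 4 others had means of 12.5 to 21 CPM. Cry1 lost the call without liver replicate 1, with scaling to total counts and in the heterozygous libraries.

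The depleted genes below that level were named after their values were seen. Brain was the highest tissue for 19 of the 49, and muscle, liver and spleen for 10 each. Kcnc1, a potassium channel, stood at 0.0131 CPM in kidney, 134 in brain and 132 in muscle. The chemokine receptor Ackr1 stood at 0.0242 CPM against 1.92 to 24.4 CPM in the others, Ramp1, a receptor accessory protein, at 1.01 against 8.65 to 70 CPM, and Xk, a membrane transport protein, at 0.709 against 6.81 to 15.3 CPM. Abcb4, a phospholipid exporter of bile, was low in kidney (0.54 CPM) and brain (4.14 CPM) and at 381 CPM in liver.

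Genes low in kidney and in a single other tissue included Satb1, a chromatin organiser of lymphocytes and neurons, at 2.01 CPM in kidney and 1.55 in liver against 59 to 140 CPM elsewhere, and Ank1, ankyrin (0.55 against 44.8 to 1142 CPM). Il18, an inflammatory cytokine, stood at 0.862 CPM in kidney and 0.41 in muscle, and 11.8 to 18.7 CPM in brain, liver and spleen. Zfhx4, a homeobox factor, stood at 0.169 CPM in kidney and 9.76 to 16.7 CPM in brain, liver and muscle. Slc17a7, a synaptic vesicle transporter, was called lower in kidney and spleen, and this call rests on liver replicate 3, which read 6.81 CPM of it against 0.0906 and 0.079 in the other liver libraries.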

How the data were processed

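Total RNA was measured in 15 wild-type libraries, 3 of each tissue. The values are raw fragment counts per gene, deposited by the authors in 1 table per tissue of 48709 genes (48349 with a symbol), made with featureCounts 1.5.0-p3 on Ensembl 86 of GRCm38, per the file headers, without strand and with unique fragments of single genes only. Exon lengths in the deposited tables served for levels per kilobase. The submitters' processing notes also name STAR, FastQC and DESeq2, and no aligner version is given in the sources used here. Genes whose exons overlap another gene lose or share fragments. Every library was assigned to its tissue and genotype from its title, and no library was left out.

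The main test was the edgeR 4.0.16 quasi-likelihood F-test (R 4.3.3) with filterByExpr on tissue, TMM scaling, a single fit of 15 libraries and Benjamini-Hochberg adjustment over 22933 genes; 14030 of the 48709 were at 0 in all 15 libraries. A call needed an adjusted p under 0.05 and a 4-fold difference. SE is the log2 difference divided by the square root of F. The members and the lists were chosen with earlier results of these data known. Named genes were the 25 enriched genes with the largest fold over the next tissue (at least 10 CPM), the 10 highest per kilobase, depleted genes at 10 CPM or more in each other tissue, 5 of each shared class and up to 6 of each list. Alternatives were DESeq2 1.42.0, its size factors, total counts, limma-voom (limma 3.58.1), 2 filters, 3 fold minimums, the 15 heterozygous libraries, all 30 libraries, a replicate block and each library or tissue left out. A few named genes are not reported here.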

Additional observations from a re-analysis of the deposited data

How the results depend on the processing

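Counts depended on the fold minimum by construction. With 2-fold, none and 10-fold, genes higher than the mean numbered 5451, 7546 and 1995, lower 2686, 5468 and 442, enriched 1375, 1739 and 567, and depleted 121, 379 and 15. Dropping a tissue asks 3 comparisons in place of 4: enriched genes rose to 1444 without brain and 1579 without liver, and depleted genes to 77 without brain, 249 without liver, 168 without muscle and 198 without spleen. Genes lower than the mean numbered 2120 with DESeq2, 2785 with limma-voom and 831 with total counts. With total counts depleted genes numbered 24, kidney and brain 1019 higher and 7 lower, and kidney and spleen 286 higher and 61 lower. With total counts the median of all genes moved from 0.22 to 1.38 against muscle. The cause of the other moves was not tested.

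Leaving out 1 library at a time gave 891 to 956 enriched, 40 to 63 depleted, 3423 to 3649 higher and 1107 to 1314 lower genes. With a replicate block 905 genes were enriched (897 of the 902), 46 depleted, 3424 higher and 1245 lower. Deviations of kidney and same-numbered libraries correlated at -0.144 to 0.132, and the own number gave the highest of 3 correlations in 4 of 12 cases. Whether a number marks a mouse is not known, and the block is not part of the reported fit. DESeq2 called 803 enriched, all among the 902, and gave no adjusted p for 3 of the 902, Umod and Klk1 among them. The 15 heterozygous libraries gave 889 enriched genes, 803 of them shared, and 49 depleted genes, 27 of them shared. In those libraries 12 named values changed sign against the reported fit: Alb 2.12, Apoa1 1.55, Ahsg 2.21, Cps1 1.81, Tat 1.0, Cyp2c29 1.38, Cyp1a2 0.19, Mup3 1.71, F2 0.01 and Hpx 0.12 against the mean, Adcy8 0.20 and Spink4 -0.66. Alb read 23.2 to 26.8 CPM of total counts in wild-type spleen and 0.0219 to 0.112 in heterozygous spleen, and 215.2 in a heterozygous kidney library.

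Limits are 3 libraries a tissue, unstranded counting and transcripts of other tissues in some libraries. Folds over low levels are counted against 3 counts per library where that is higher. Log2 differences and list medians have no such floor. Of the 902 enriched genes 168 had every library of the next tissue at or under 3 counts. With limma-voom the thick ascending limb median against liver was 11.16 in place of 13.82. The urothelial median against the mean was 6.86 in place of 8.19.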
